A study of Homo sapiens with 8 samples.

Results

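The genes described here encode the core of the human microRNA (miRNA) pathway. They are the Argonautes AGO1 to AGO4, the GW182 proteins TNRC6A, TNRC6B and TNRC6C, and the processing factors DROSHA, DGCR8 and DICER1. They were chosen by name, by a rule that uses no measured value but was set with earlier results of these data known, and 8 of the 10 had a row among the 10105 genes of the count table. AGO4 and TNRC6C had no row in the table and were not analysed here.

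Messenger RNA abundance (RNA-Seq) and ribosome-protected fragments (RPF, Ribo-Seq) were measured in HEK293T cells, a human embryonic kidney line that carries the SV40 large T antigen. Wild-type (WT) cells were compared with XRN1-null cells, a HEK293T line in which CRISPR/Cas9 editing of a coding exon of XRN1 left a frameshift. XRN1 is the main cytoplasmic exonuclease that degrades decapped mRNA in the 5′ to 3′ direction. Both genotypes were harvested 24 h after plating on 15 cm dishes, and each genotype had 2 biological replicates per assay, 8 libraries in all. All XRN1-null libraries came from the same edited line and no library is labelled as a rescued line, so differences between this line and WT that are not due to the edit cannot be told apart from those that are. The p-values measure the spread between the replicates of these lines.

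In the nucleus, the Microprocessor, made of the RNase III enzyme DROSHA and the RNA-binding protein DGCR8, cuts primary miRNA transcripts into hairpins. DICER1 then trims the hairpins to short duplexes in the cytoplasm, and 1 strand is loaded on an Argonaute protein. The Argonaute binds target mRNAs and a GW182 protein, which recruits the deadenylases CCR4–NOT and PAN2–PAN3, and target mRNAs are decapped and degraded by XRN1. The Microprocessor is also known to cut hairpins within DGCR8 mRNA itself.

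The RNA-Seq libraries held 33757487 to 38145433 counts and the Ribo-Seq libraries 1921641 to 4399542, the lowest being WT replicate 1. Footprint counts of the miRNA pathway genes ranged from 24 to 497 per library, against 451 to 11766 mRNA counts. Levels are given as counts per 1 M of the library total (CPM) after scaling by TMM, a factor that balances the bulk of genes between libraries of an assay. Changes are log2 fold changes of XRN1-null over WT from edgeR's quasi-likelihood test, with false discovery rates (FDR) from the Benjamini-Hochberg adjustment over all 10105 genes and calls at an FDR below 0.005. Translational efficiency (TE), the ratio of footprints to mRNA, was tested over the 8 libraries as a change in genotype effect between the assays. A change in level can reflect fewer or more cells that express a gene or less or more RNA per cell, which cannot be told apart in these bulk samples.

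XRN1 itself was checked first. XRN1 mRNA was at 33.5 and 33.0 CPM in WT and at 281.6 and 252.6 CPM in the XRN1-null libraries, a rise of 3.01 on the log2 scale (FDR = 1.92e-06). Its footprints went the other way, from 34.4 and 49.9 CPM to 22.6 and 18.4 CPM, and fell by 1.08 (FDR = 0.00641), which did not pass the threshold. The TE change of XRN1 was -4.09 on the log2 scale (FDR = 1.66e-06) and passed. In the paper, all XRN1 transcripts found in this line kept intron 5. The table also listed 8 of 10 genes typical of HEK293T cells (all but PAX2 and LHX1) and 1 of 8 genes typical of other cell types. That gene, COL1A1, was at 2.47 mRNA counts per kb and 1 M (RPKM) in WT and at 6.26 in XRN1-null cells, and its part in the results was not tested. The authors kept only genes above 2 fragments per kb and 1 M (FPKM), so a gene without a row may still be expressed at a low level.

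Of the 8 pathway mRNAs, 5 were called higher in XRN1-null cells. AGO1, AGO3, TNRC6A, TNRC6B and DGCR8 mRNAs rose, no member fell, and AGO2, DICER1 and DROSHA did not pass the threshold. The 5 of 8 genes called higher compare with 22.9% of all genes called higher in mRNA. Without XRN1-null RNA-Seq replicate 1, 3 of the 8 were called higher and 16.2% of all genes. The log2 fold change was above 0 for all 8 genes, with a median of 0.49, against a median of -0.015 over all genes. XRN1-null libraries lay above both WT libraries for 7 of the 8 genes, AGO2 being the exception, against 41% of all genes.

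**Figure D1:**
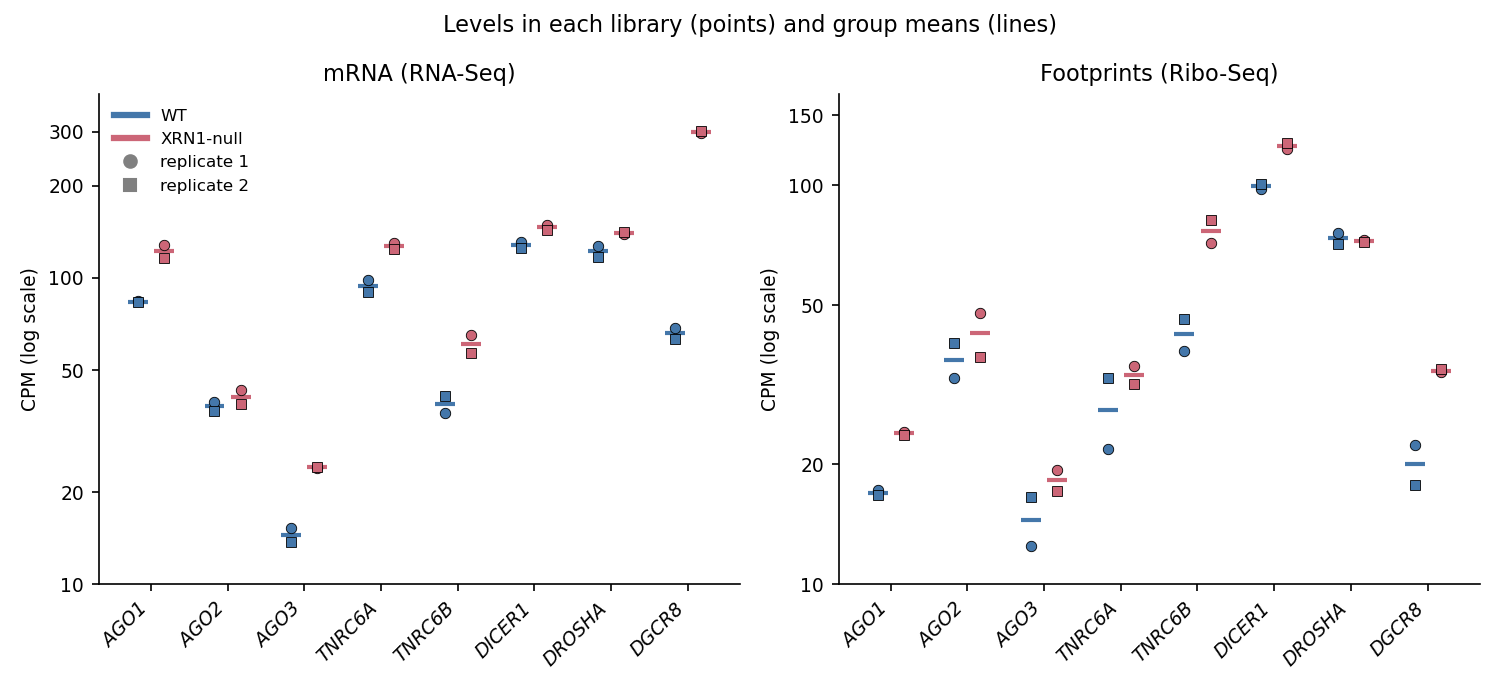
Level of each gene (CPM, log scale) in RNA-Seq (left) and Ribo-Seq (right), with 1 point per library (circles, replicate 1; squares, replicate 2) and a line at the mean of 2 replicates. DGCR8 mRNA stands near 66 CPM in WT and near 300 CPM in XRN1-null cells, while AGO2 mRNA overlaps between genotypes.

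DGCR8, the RNA-binding subunit of the Microprocessor, showed the largest change of the 8 genes. Its gene lies on chromosome 22 from 20067744 to 20099400 on the plus strand (GRCh37). Exon 2 of its reference transcript, from 20073210 to 20074206, contains the annotated miRNAs miR-3618 and miR-1306, and the coding sequence begins in the same exon at 20073487. Their mature sequences (RefSeq, GRCh38.p14) each matched the GRCh37 genome once, and they are shown because they lie in the mRNA whose level changed most, with the seed (bases 2 to 8) in capitals.
hsa-miR-3618: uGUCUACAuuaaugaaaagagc
hsa-miR-1306-5p: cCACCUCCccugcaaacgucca
hsa-miR-1306-3p: aCGUUGGCucugguggug
The 3 seeds differ from each other. miR-3618 lies in the 5′UTR (chr22:20073320-20073341), and both arms of miR-1306 lie in the coding sequence (chr22:20073595-20073616 and chr22:20073635-20073652).

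DGCR8 mRNA was at 68.5 and 63.2 CPM in the WT libraries and at 297.3 and 302.3 CPM in the XRN1-null libraries. The genotypes did not overlap, and the gap was many times the spread between replicates. The mean rose 4.55-fold, from 65.9 ± 3.76 to 299.8 ± 3.50 CPM (SD, n = 2), with a log2 fold change of 2.19 (SE 0.07, 95% interval 2.02 to 2.35, FDR = 2.51e-06). Ranked by mRNA log2 fold change, DGCR8 was number 54 of 10105 genes. In WT cells its mRNA level per kb stood at percentile 48.9 of all genes, and in XRN1-null cells at percentile 89.5.

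DGCR8 footprints were at 22.4 and 17.7 CPM in WT and at 34.0 and 34.7 CPM in XRN1-null cells, from 43, 77, 137 and 111 counts. The genotypes again did not overlap, but the difference was smaller than for mRNA. The log2 fold change in footprints was 0.82 (SE 0.18, 95% interval 0.44 to 1.21, FDR = 0.0123) and did not pass the threshold. It passed with edgeR's likelihood ratio test and with replicate number as a block (0.81). Without WT Ribo-Seq replicate 1 the value was 0.96, and without WT Ribo-Seq replicate 2 it was 0.63.

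Between libraries of equal replicate number, the ratio of DGCR8 footprints to mRNA was 0.327 and 0.28 in WT. It was 0.114 and 0.115 in the XRN1-null libraries. DGCR8 TE fell by 1.36 on the log2 scale (SE 0.19, 95% interval -1.77 to -0.95, FDR = 0.00129). DGCR8 was the only 1 of the 8 genes called in TE, a direction in which 1.78% of all genes were called. The TE call was lost when any of the 4 XRN1-null libraries was left out (FDR from 0.00512 to 0.0207), with log2 fold changes of -1.56 to -1.23 over all 8 omissions. An antisense lncRNA (ENSG00000243762) overlaps 523 nt of the DGCR8 reference transcript, and its share of the reads cannot be told apart because no strand setting is given in the sources used here. The paper proposes that uncapped fragments of decaying mRNAs build up in XRN1-null cells and are not translated. Counts per gene do not separate such fragments from whole mRNA, for DGCR8 or any other gene. The part of such fragments in the mRNA and TE changes was not tested.

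The other processing factors changed little in mRNA. DROSHA, the nuclease of the Microprocessor (chromosome 5, 31400601 to 31532303), was at 127 and 117 CPM in WT and at 138.8 and 141.2 CPM in XRN1-null cells. Although the libraries did not overlap, the log2 fold change of 0.20 (SE 0.07, FDR = 0.0321) did not pass the threshold. DROSHA footprints were at 76.1 and 71.2 CPM in WT and at 72.8 and 72.1 CPM in XRN1-null cells. These overlapped, and the 95% interval of the log2 fold change ran from -0.32 to 0.28.

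DICER1, the cytoplasmic RNase III enzyme (chromosome 14, 95552565 to 95624347), had 130.9 and 125 CPM in WT and 149.4 and 142.9 CPM in the XRN1-null libraries. Its mRNA log2 fold change was 0.19 (SE 0.06, FDR = 0.0306). DICER1 footprints were at 97.9 and 101.1 CPM in WT and at 123.4 and 128 CPM in XRN1-null cells. They did not overlap, and the log2 fold change of 0.33 (SE 0.14, FDR = 0.11) did not pass the threshold. Without WT RNA-Seq replicate 1, DICER1 and DROSHA mRNA were both called higher, by 0.25 and 0.28.

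Among the processing factors, DGCR8 held 29.9 ± 0.168% of summed mRNA per kb of deposited width in WT and 62.9 ± 0.344% in XRN1-null cells (SD, n = 2). DROSHA went from 45.6 to 24.2% and DICER1 from 24.5 to 12.9%. Shares are relative, and these 2 fell although the mRNA log2 fold changes of DROSHA and DICER1 were 0.20 and 0.19. Per kb of coding length, a scale chosen after the data were seen, DGCR8 held 35.4 ± 0.228 and 68.5 ± 0.393% of the mRNA. On footprints per coding kb, DGCR8 held 19.7 ± 2.43% in WT and 27.3 ± 0.031% in XRN1-null cells. DICER1 footprint shares were 39.5 and 40.2%, and DROSHA shares 40.8 and 32.4%.

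**Figure D2:**
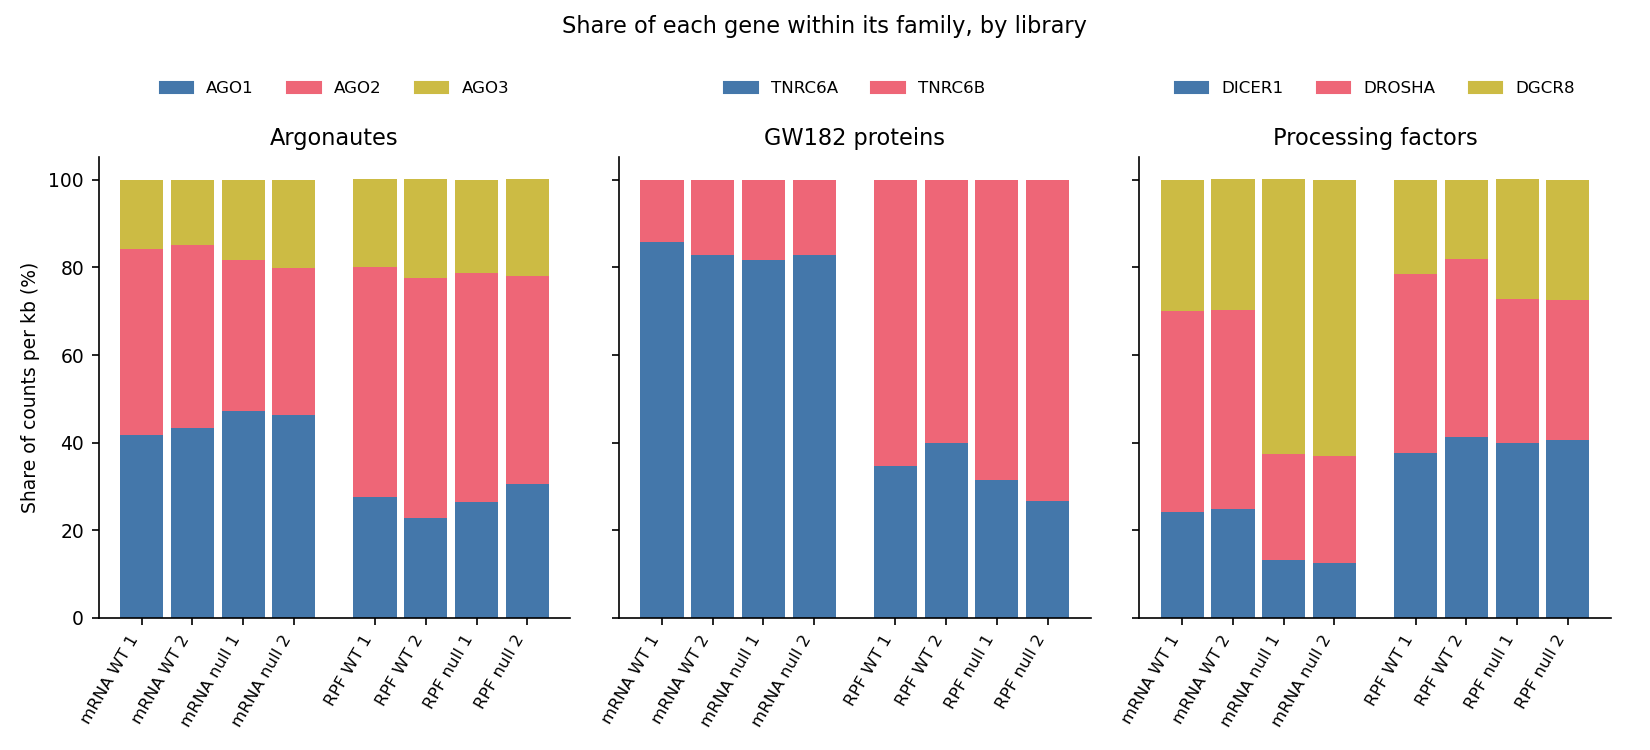
Share (%) of each gene in the summed counts per kb of its family, for each library (RPF, footprints), with mRNA per kb of the deposited width and footprints per kb of coding length. DGCR8 makes up 62.7 and 63.1% of processing factor mRNA in the XRN1-null libraries, against 30 and 29.8% in WT.

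Of the Argonautes, AGO1 and AGO3 mRNAs rose and AGO2 mRNA did not pass the threshold. AGO1 and AGO3 are neighbours on chromosome 1 (36335409 to 36396133 and 36396319 to 36538101, both on the plus strand), and AGO2 lies on chromosome 8 (141530255 to 141645732). AGO2 is the Argonaute that can itself cleave a fully paired target.

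AGO1 mRNA was at 83.8 and 83.3 CPM in WT and at 127.9 and 116.5 CPM in XRN1-null cells. It rose 1.46-fold, by 0.55 on the log2 scale (SE 0.07, 95% interval 0.39 to 0.71, FDR = 0.000349). Leaving out XRN1-null RNA-Seq replicate 1 ended this call (FDR = 0.00561). AGO1 footprints did not overlap between genotypes, with 17.2 and 16.8 CPM in WT and 24.1 and 23.7 CPM in the XRN1-null libraries. They rested on 33 to 97 counts per library, and the log2 fold change of 0.50 (SE 0.19, FDR = 0.0862) did not pass the threshold.

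AGO3, the lowest in mRNA of the 3 Argonautes in the table, had 15.3 and 13.7 CPM in WT and 24.0 and 24.2 CPM in the XRN1-null libraries. Its mRNA rose 1.66-fold (log2 fold change 0.73, SE 0.09, FDR = 0.000285). AGO3 footprints were at 12.5 and 16.5 CPM in WT and at 19.4 and 17.2 CPM in XRN1-null cells, a log2 fold change of 0.28 (SE 0.22, FDR = 0.388). The genotypes were separate by less than 1 CPM in footprints, below the spread between replicates. The AGO3 TE log2 fold change was -0.46, with a 95% interval from -0.94 to 0.03. As single libraries were left out, the footprint value ranged from 0.16 to 0.57 and the TE value from -0.57 to -0.16. The values 0.57 and -0.16 were those without WT Ribo-Seq replicate 2.

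AGO2 mRNA was at 39.3 and 36.8 CPM in WT and at 43.0 and 38.8 CPM in XRN1-null cells. The genotypes overlapped, and the log2 fold change was 0.10 (SE 0.08, 95% interval -0.08 to 0.29, FDR = 0.283). AGO2 footprints overlapped too, with 32.8 and 40.2 CPM in WT and 47.9 and 37.2 CPM in the XRN1-null libraries. Their log2 fold change was 0.20, with an interval from -0.19 to 0.58, and ranged from 0.00061 (without XRN1-null Ribo-Seq replicate 1) to 0.40 (without WT Ribo-Seq replicate 2). The 8-library profile of AGO2 lay nearest to those of PTPN12 and POPDC3, at distances of 0.111 and 0.164 in centred log2 CPM.

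Argonaute levels per kb depended on the length used, since the deposited widths of AGO1, AGO2 and AGO3 (7588, 3500 and 3645 nt) are shorter than their reference transcripts (13712, 14595 and 19660 nt). On the deposited widths, AGO1 held 42.6 ± 1.22% of Argonaute mRNA in WT and 46.8 ± 0.549% in XRN1-null cells. AGO2 went from 42.1 ± 0.551 to 34 ± 0.581% and AGO3 from 15.4 ± 0.669 to 19.2 ± 1.13%, and the genotypes did not overlap for any of the 3. Shares are relative, and the AGO2 share fell while AGO2 mRNA itself overlapped between genotypes (log2 fold change 0.10). On mRNA per coding kb, AGO1, AGO2 and AGO3 held 61.4, 27.9 and 10.6% in WT and 65.3, 21.8 and 12.9% in the XRN1-null libraries. On footprints per coding kb, AGO2 held 53.6 ± 1.55% in WT and 50 ± 3.43% in XRN1-null cells, and AGO1 25.2 ± 3.32 and 28.4 ± 2.86%. These footprint shares differed by less than or about as much as the replicates did. Antisense lncRNAs overlap 396 nt of the AGO1 and 86 nt of the AGO3 reference transcript.

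Both GW182 genes rose in mRNA. TNRC6A and TNRC6B encode the scaffold proteins that link Argonautes to the deadenylases, and lie on chromosome 16 (24621530 to 24838953) and chromosome 22 (40440821 to 40731812). TNRC6B mRNA was at 36.2 and 41.1 CPM in WT and at 64.9 and 56.9 CPM in XRN1-null cells. It rose 1.58-fold (log2 fold change 0.66, SE 0.09, FDR = 0.000545).

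TNRC6B footprints were at 38.6 and 46.2 CPM in WT and at 71.5 and 81.8 CPM in XRN1-null cells, 1.77-fold apart. This was the largest footprint difference of the 8 genes, beside that of DGCR8, and came from 74 to 288 counts per library. The log2 fold change was 0.83 (SE 0.16, 95% interval 0.49 to 1.16, FDR = 0.00675) and did not pass the threshold. It passed when library totals replaced TMM factors, with edgeR's likelihood ratio test, and with replicate number as a block (0.85). Without WT Ribo-Seq replicate 1 the value was 0.73, and without WT Ribo-Seq replicate 2 it was 1.00.

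TNRC6A mRNA was at 98.6 and 90.0 CPM in WT and at 129.6 and 123.9 CPM in XRN1-null cells. It rose 1.34-fold (log2 fold change 0.43, SE 0.07, FDR = 0.00132), and leaving out XRN1-null RNA-Seq replicate 1 or 2 ended the call (FDR = 0.0204 and 0.00928). TNRC6A footprints overlapped between genotypes, with 21.9 and 32.9 CPM in WT and 35.3 and 31.8 CPM in the XRN1-null libraries. Their log2 fold change of 0.23 (FDR = 0.434) ranged from 0.042 to 0.63 as single libraries were left out, the highest without WT Ribo-Seq replicate 2. LRCH2 and RNASE4 had the profiles nearest to that of TNRC6A, at distances of 0.131 and 0.16, and BRD8 and PRR11 those nearest to that of DICER1, at 0.0853 and 0.0982.

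Shares within the GW182 pair depended on the length used. TNRC6A held 84.4 ± 2.02% of their mRNA per kb of deposited width in WT and 82.2 ± 0.906% in XRN1-null cells, a difference of about the size of the replicate spread. On mRNA per coding kb, TNRC6A held 69.5 ± 3.25 and 66.1 ± 1.39%, and TNRC6B 30.5 and 33.9%. TNRC6B held 62.7 ± 3.73% of their footprints per coding kb in WT and 70.9 ± 3.44% in XRN1-null cells. TNRC6B has the longest deposited width of the 8, 18695 nt, and the coding length of its GENCODE reference transcript is 5502 nt.

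**Figure D3:**
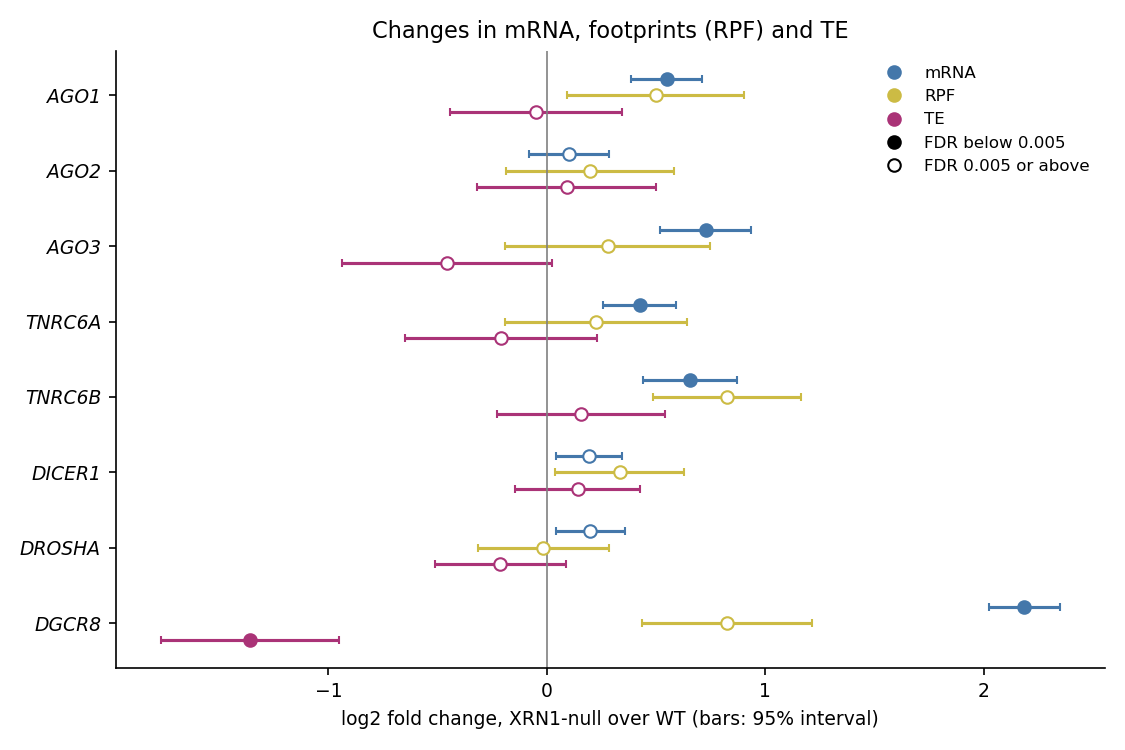
Log2 fold change of XRN1-null over WT for each gene in mRNA, footprints (RPF) and TE, with 95% intervals as bars (edgeR quasi-likelihood fits; filled points, FDR below 0.005). DGCR8 is the gene whose mRNA (2.19) and TE (-1.36) points lie farthest from 0.

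In footprints as a whole, 0 of the 8 genes passed edgeR's quasi-likelihood test, against 0.633% of all genes called higher and 1.14% called lower. At an unadjusted p under 0.05, 3336 of the 10105 genes passed in footprints, among them AGO1, TNRC6B, DICER1 and DGCR8. The log2 fold change was above 0 for 7 of the 8 genes, with a median of 0.31, against -0.0033 over all genes. XRN1-null libraries lay above both WT libraries for 5 of the 8 genes (AGO1, AGO3, TNRC6B, DICER1 and DGCR8), against 32.1% of all genes. Library depth differed here, since WT replicate 1 had the fewest footprint counts, and its part in these differences was not tested.

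TE moved less for the 7 genes other than DGCR8, none of which was called. Log2 fold changes in TE were -0.05 for AGO1, 0.09 for AGO2, -0.21 for TNRC6A, 0.16 for TNRC6B, 0.14 for DICER1 and -0.21 for DROSHA, with AGO3 at -0.46 as given above. Over the omission of single libraries TNRC6A TE ranged from -0.38 to 0.21 and TNRC6B TE from 0.058 to 0.34, both highest without WT Ribo-Seq replicate 2. All 7 of these 95% intervals include 0, and they reach from -0.94 (AGO3) to 0.54 (TNRC6B). Over the 8 genes the median TE log2 fold change was -0.13 and 3 values were above 0, against a median of 0.0081 over all genes.

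**Figure D4:**
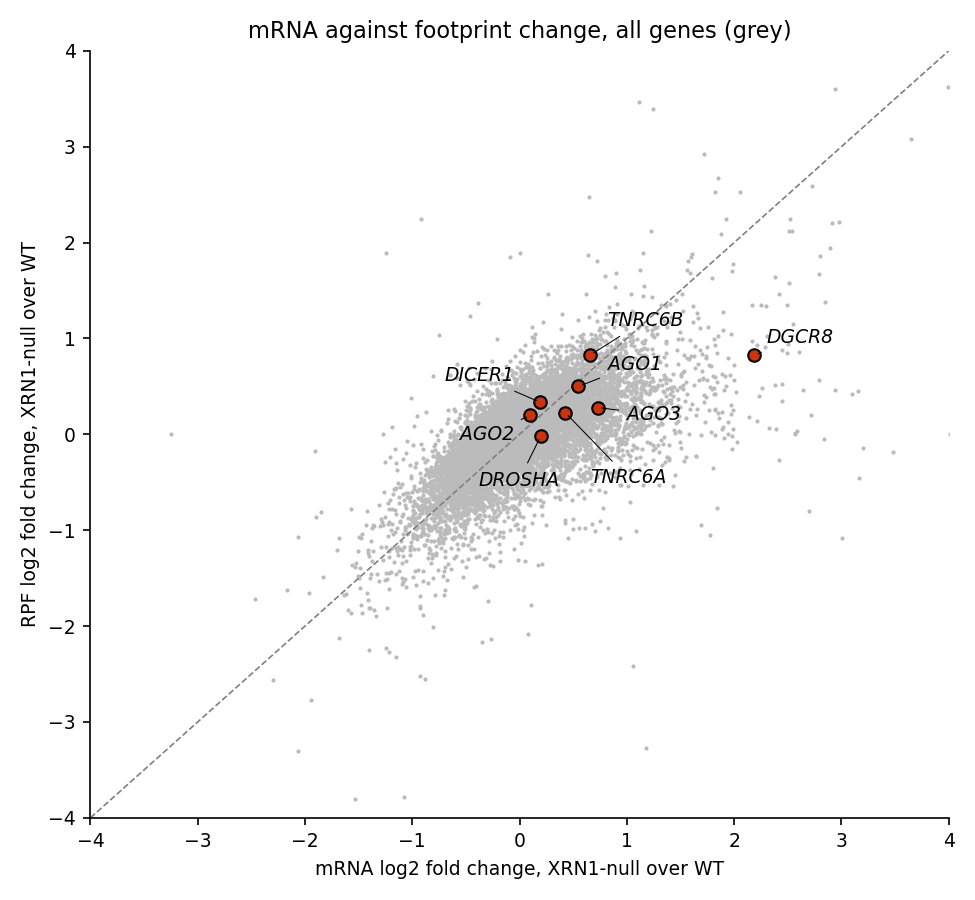
Footprint (RPF) against mRNA log2 fold change of XRN1-null over WT for all genes (grey, 6 genes lie outside the axes) and the 8 miRNA pathway genes (red), with a dashed line where both are equal. DGCR8 lies far below the line, at 2.19 in mRNA and 0.82 in footprints.

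The order of the 8 genes by level per kb depended on the length. In WT mRNA per kb of deposited width (RPKM), DROSHA was highest at 22.2 ± 1.28, followed by DGCR8 at 14.6 ± 0.831 (SD, n = 2). DICER1, TNRC6A, AGO1 and AGO2 followed at 11.9 ± 0.394, 11.2 ± 0.724, 11.01 ± 0.0489 and 10.9 ± 0.503, and neighbours among these 4 did not differ beyond their spread. AGO3 was at 3.98 ± 0.305 and TNRC6B was lowest at 2.07 ± 0.183. Per kb of coding length AGO1 mRNA (32.55 and 32.3) was above DROSHA mRNA (30.8 and 28.4), and AGO3 (5.93 and 5.32) below TNRC6B (6.58 and 7.47).

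In WT footprints per kb of coding length, DROSHA (18.4 and 17.3) and DICER1 (16.97 and 17.5) were highest and overlapped. AGO2 followed at 12.7 and 15.6. DGCR8 (9.65 and 7.62), TNRC6B (7.01 and 8.39), AGO1 (6.68 and 6.52), AGO3 (4.84 and 6.40) and TNRC6A (3.72 and 5.58) were lower, and within this order only TNRC6B and AGO1, and AGO1 and AGO3, were neighbours without overlap.

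Genes that act with this core were read from 4 lists written from general knowledge, 110 of whose 127 genes were in the table. Over all 4 lists, 33 mRNAs were higher (30%) and 16 lower (14.5%), against 22.9 and 23.2% of all genes, with a median log2 fold change of 0.13. Footprints were called higher for 4 (3.64%) and lower for 2 (1.82%) of the 110, against 0.633 and 1.14% of all genes. Leaving out WT Ribo-Seq replicate 1 gave 16 and 5 (14.5 and 4.55%, against 5.82 and 7% of all genes), and leaving out WT Ribo-Seq replicate 2 gave 32 and 8 (29.1 and 7.27%, against 12.7 and 10.8%). TE was called higher for 1 and lower for 1 (0.909% each), against 0.0495 and 1.78% of all genes.

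Among 22 biogenesis partners, 6 mRNAs rose and 2 fell (median 0.11). Those counts were 27.3 and 9.09%, against 22.9 and 23.2% of all genes. ZCCHC6 (TUT7), which adds uridines to miRNA precursors, rose from 18.9 ± 0.19 to 66.4 ± 1.53 CPM (SD, n = 2; log2 fold change 1.81, FDR = 3.07e-06). SRRT, which links the cap-binding complex to the Microprocessor, rose by 1.20 on the log2 scale, and DIS3L2, which degrades uridylated precursors, by 0.68. ERH, a DGCR8 partner, fell by 0.63, and RAN, the GTPase that drives export of precursors by exportin 5, fell by 0.34. No biogenesis partner was called in footprints or TE. Of all genes, 0.633% were called higher and 1.14% lower in footprints, and 0.0495% higher and 1.78% lower in TE. The RAN call was lost without either XRN1-null RNA-Seq library (FDR = 0.0725 and 0.0489).

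Of 32 loading and silencing partners, 10 mRNAs rose and 4 fell (median 0.15). Those counts were 31.2 and 12.5%, against 22.9 and 23.2% of all genes. ZSWIM8, the ubiquitin ligase adaptor of target-directed miRNA degradation, rose from 45.4 ± 1.93 to 164.1 ± 2.52 CPM (log2 fold change 1.85, FDR = 3.07e-06), and its TE fell by 1.63 (FDR = 0.00079). MOV10, an RNA helicase bound to Argonautes, rose by 1.05 in mRNA and by 0.96 in footprints (FDR = 0.005 after rounding), and AJUBA, a LIM protein, rose by 0.96 in mRNA. DDX6, a helicase of translational repression and decapping, rose by 0.92 in footprints (FDR = 0.00435).

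PABPC1, the poly(A)-binding protein, fell by 0.81 in mRNA, from 1316 ± 45.2 to 752 ± 7.59 CPM, while its TE rose by 1.41 (FDR = 0.00398). TSN, the translin subunit of an endonuclease, and AHSA1, an HSP90 cochaperone, fell by 0.43 and 0.40. Several of these calls were lost without 1 library. DDX6 was lost without either XRN1-null Ribo-Seq library (FDR = 0.0257 and 0.0239), MOV10 footprints without XRN1-null Ribo-Seq replicate 2 or with a minimum of 10 counts (FDR = 0.012 and 0.00596), and the TSN and AHSA1 calls without either XRN1-null RNA-Seq library (FDR from 0.0148 to 0.0541). AHSA1 was also lost with library totals (FDR = 0.00763). ZSWIM8 TE was lost without WT Ribo-Seq replicate 2 or XRN1-null Ribo-Seq replicate 1 (FDR = 0.013 and 0.0117), and PABPC1 TE in 6 of 8 omissions (FDR up to 0.0445).

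Among 20 genes that host miRNAs in their introns or exons, 6 mRNAs rose and 1 fell (median 0.15). Those counts were 30 and 5%, against 22.9 and 23.2% of all genes. SLIT2, host of miR-218 and a guidance ligand, rose by 1.28 in mRNA and by 1.26 in footprints (465 ± 16.4 to 1114 ± 8.15 CPM, FDR = 0.000191). SMC4, a condensin subunit that hosts miR-15b and miR-16, rose by 1.05 in mRNA and by 1.28 in footprints (FDR = 0.00368), a footprint call lost with DESeq2 (FDR = 0.0184). PANK2 and PANK1, pantothenate kinases that host copies of miR-103 and miR-107, rose by 1.04 and fell by 0.65 in mRNA.

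Of 36 described miRNA targets, 11 mRNAs rose and 9 fell (median 0.06). IGF2BP3, an RNA-binding protein targeted by let-7, rose by 1.07, and DNMT3B, a DNA methyltransferase, by 0.94. CCND1 (cyclin D1) fell by 1.47 in mRNA, from 57.1 ± 5.43 to 20.6 ± 1.89 CPM, and by 1.87 in footprints (FDR = 0.00121). CDKN1A (p21) fell by 1.24 in mRNA and by 1.45 in footprints (FDR = 0.00121), and NOTCH1, a receptor, by 0.88 in mRNA. Described targets were called in both directions, at 30.6% higher and 25% lower, against 22.9 and 23.2% of all genes.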

How the data were processed

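Reads of ribosomal RNA were filtered out by the authors (Bowtie2) and the rest aligned to hg19 (TopHat2), with footprints limited to 29 and 30 nt. The deposited values are raw QuasR counts for each gene above an FPKM of 2, beside the gene's width. Tool versions, the annotation and the strand setting are not given in the sources used here. Deposited files of the authors' edgeR and RiboDiff comparisons (log2 fold changes, p-values, FDR values and TE) were not used. Groups and replicates came from the labels.

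Counts of all 10105 genes were fitted with edgeR 4.0.16 and limma 3.58.1 in R 4.3.3, with TMM factors per assay and genotype as the term. TE was the assay by genotype interaction over 8 libraries, since RiboDiff was not run. Standard errors are the log2 fold change over the root of the F statistic, and intervals are 95%. DESeq2 1.42.0 was an alternative, with other scalings, tests, a minimum of 10 counts, an FDR of 0.05, blocks and the omission of each library. Levels per kb used the deposited width or the coding length of GENCODE release 44 on GRCh37, which also gave positions. Profiles nearest to AGO2, TNRC6A and DICER1 were found by Euclidean distance of log2(CPM + 0.5), centred per assay. The paper does not mention molecular identifiers, and the part of PCR copies in the low counts was not tested.

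The members and lists were chosen with earlier results of these data known. Named genes are all members, XRN1, and for each list and contrast the 3 largest rises and falls among calls seen in all 4 pairings of WT with XRN1-null libraries (for TE, among all calls), plus the 2 nearest profiles of those 3 members. One gene that this rule names is not reported here. The fits were tested on simulated counts. Replicates differed by more than counting noise.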

Additional observations from a re-analysis of the deposited data

Results flagged for a closer look

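DGCR8 is listed here because its change differed between the assays. The test of that difference, the interaction of assay and genotype over the 8 libraries, gave -1.36 on the log2 scale (edgeR's quasi-likelihood test, FDR = 0.00129), with mRNA changed by 2.19 and footprints by 0.82. All 4 ratios of footprints to mRNA, between libraries of equal replicate number, placed XRN1-null (0.114 and 0.115) below WT (0.327 and 0.28). These ratios use the same counts as the test and add no further evidence. Groups had 2 libraries, so no test for single outlying libraries was made.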

How the results depend on the processing

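DGCR8 mRNA passed under all 6 other fits and all 4 omissions of a library (2.13 to 2.27), and DGCR8 TE under all 8 other fits and 4 of 8 omissions. The cause was not tested for the changes below. Pathway genes called higher in footprints numbered 0 in the main test, 1 with library totals (1.32% of all genes) and 2 with the likelihood ratio test, an FDR of 0.05 or the replicate block. Over the partner lists, footprints called higher numbered 10, 18 and 14 with the likelihood ratio test, an FDR of 0.05 and the replicate block (main 4), against 4.64, 7.07 and 6.1% of all genes, and footprints called lower 4 in each (main 2), against 5.9, 8.38 and 6.58%. Partner TE called lower numbered 7 with the likelihood ratio test, 10 with an FDR of 0.05, 6 with the culture replicate block, and 2 with library totals, DESeq2, the replicate block and TMM factors over all 8 libraries (main 1), against 5.9, 6.46 and 4.3% of all genes in the first 3 and 1.88 to 3.19% in the others. Partner TE called higher numbered 3 with the likelihood ratio test and with an FDR of 0.05, and 4 with the culture replicate block (main 1), against 0.703, 1.02 and 0.544% of all genes.

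Leaving out 1 library at a time, pathway genes called higher ranged from 3 to 7 in mRNA and from 0 to 2 in footprints, and those called lower in TE from 0 to 1. Partner counts ranged from 22 to 56 in mRNA higher and 9 to 27 in mRNA lower, 3 to 32 in footprints higher and 2 to 8 in footprints lower, and 0 to 2 in TE higher and 0 to 4 in TE lower. Over the same omissions, all genes called ranged from 16.2 to 33.7% in mRNA higher and 10.9 to 33.5% in mRNA lower, 0.703 to 12.7% and 0.713 to 10.8% in footprints, and 0 to 0.0891% and 0.188 to 2.28% in TE. The library left alone in its group was assumed to vary like the other genotype. Some uncalled log2 changes changed sign. The DROSHA footprint change was 0.0016 with library totals, and ranged from -0.058 to 0.030 over the omissions (above 0 without WT Ribo-Seq replicate 1). TE changes ranged from -0.12 to 0.020 for AGO1 (above 0 without XRN1-null RNA-Seq replicate 1), from -0.38 to 0.21 for TNRC6A (above 0 without WT Ribo-Seq replicate 2), and from -0.12 to 0.30 for AGO2, with -0.00066 and -0.12 without WT and XRN1-null Ribo-Seq replicate 1.

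Equal replicate numbers are not stated to mark shared cultures. Deviations of same-numbered libraries correlated at 0.19 in RNA-Seq and 0.0803 in Ribo-Seq over 2 pairs each, and those of RNA-Seq with Ribo-Seq at 0.355 in WT and 0.0326 in XRN1-null cells. These do not settle a pairing, so the replicate block, which also called DGCR8 and TNRC6B footprints higher, is given only as an alternative. The Ribo-Seq libraries were shallower, and the biological coefficient of variation was 9.84% in Ribo-Seq and 6.02% in RNA-Seq. The part of either in the fewer footprint and TE calls was not tested.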

Other observations

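Genes that, like DGCR8, carry an annotated miRNA hairpin in an exon of the reference transcript were looked at after the DGCR8 values were seen. There were 51 of them, with 15 mRNAs higher and 7 lower in XRN1-null cells (all genes, 22.9% higher and 23.2% lower) and a median mRNA log2 fold change of -0.08. DGCR8 had the highest mRNA change of the 51 at 2.19, followed by EPC1 at 1.21 and FOXP2 at 0.86. In TE, DGCR8 was the only one of the 51 called (all genes, 0.0495% higher and 1.78% lower). EPC1 had a TE log2 fold change of -0.99 (edgeR's quasi-likelihood test, FDR = 0.00961). FAM89A (-0.98) and BCKDK (-0.91) had the lowest mRNA changes. The hairpins of EPC1 (AL391839.1), FOXP2 (AC020606.1) and BCKDK (AC135050.1) are annotated under clone names, and those of DGCR8 and FAM89A under MIR names. No test was made on this set, which was chosen after the data were seen.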
